A study of Mus musculus with 40 samples.

Results

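A set of 10 genes of endocytosis and lysosomal breakdown was followed in kidney and aorta of mice with and without the epidermal growth factor receptor in endothelial cells. The genes were those of the receptors megalin (Lrp2) and cubilin (Cubn), their partners amnionless (Amn) and Dab2, the Fc receptor Fcgrt, the lysosome membrane protein Lamp1, the cathepsins Ctsb, Ctsd and Ctsl, and the glycoprotein Gpnmb. The members were the rows of both count tables that carry these names, 10 of 55382 genes in the kidney table and 10 of 55335 in the aorta table. All 10 passed the filter on low counts in kidney (15943 genes tested) and 8 of 10 in aorta (15122 genes tested).

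EC-EGFR-KO (KO) mice came from EGFR flox/flox C57BL/6 mice bred to Tek-cre mice (B6.Cg-Tg(Tek-cre)1Ywa/J), in which the Tie2 promoter drives Cre. This Cre is active from development on, and other work has described it in blood cells as well as endothelium. EC-EGFR-WT (WT) mice carried the same Cre but no LoxP sites. The standard fat diet (SFD; 10% of energy from fat, SD in the labels) or the high fat diet (HFD; 60%) was given from 6 weeks of age for 18 weeks. Each of the 4 groups had 5 mice per tissue, which gave 40 libraries. The kidney libraries were a16 to a20 (WT SFD), a11 to a15 (WT HFD), a6 to a10 (KO SFD) and a1 to a5 (KO HFD). The sex of the mice and the hour of tissue collection are not given in the sources used here.

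In the proximal tubule, megalin and cubilin are large receptors at the brush border that bind filtered proteins, with amnionless carrying cubilin to the surface and Dab2 linking the receptors to clathrin. The cargo passes through endosomes to lysosomes, where cathepsins cut it, while the receptors and the Fc receptor, which carries IgG and albumin, are recycled. Gpnmb is a glycoprotein of lysosomes and melanosomes that is known from macrophages and pigment cells.

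In the mouse genome (GRCm38, GENCODE) Lrp2 lies at chr2:69424340-69586065 and Cubn at chr2:13276338-13491813 on the minus strand, Amn at chr12:111271095-111276426 and Dab2 at chr15:6299788-6440712 on the plus strand, and Fcgrt at chr7:45092990-45103851 on the minus strand. Lamp1 lies at chr8:13159161-13175338, Ctsb at chr14:63122462-63145923 and Gpnmb at chr6:49036546-49070929 on the plus strand, and Ctsd at chr7:142375911-142388038 and Ctsl at chr13:64359337-64370890 on the minus strand.

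Lysosomal genes often share an E-box, the core of the CLEAR element that the factor TFEB binds. The core CACGTG, which reads the same on both strands, was searched in the 250 bases before the RefSeq starts (GRCm38.p6), which were given for 9 of 10 members (not Ctsb). It lay in 4 of the 10 member windows, those of Lamp1, Ctsd, Ctsl and Amn, and in 1978 of all 32851 windows (6.02%). Lamp1 is shown because its window held 4 copies, Amn because its copy lay nearest to the start outside Lamp1, and Gpnmb because it changed most with diet and held none. The core is in capitals and all 3 runs read 5′ to 3′ on the plus strand.
Lamp1 (chr8:13158911-13159160): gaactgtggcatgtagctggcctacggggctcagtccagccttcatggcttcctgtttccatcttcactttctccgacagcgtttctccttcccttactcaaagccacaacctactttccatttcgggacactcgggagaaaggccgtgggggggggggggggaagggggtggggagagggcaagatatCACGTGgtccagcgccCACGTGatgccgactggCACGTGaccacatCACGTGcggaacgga
Amn (chr12:111270846-111271095): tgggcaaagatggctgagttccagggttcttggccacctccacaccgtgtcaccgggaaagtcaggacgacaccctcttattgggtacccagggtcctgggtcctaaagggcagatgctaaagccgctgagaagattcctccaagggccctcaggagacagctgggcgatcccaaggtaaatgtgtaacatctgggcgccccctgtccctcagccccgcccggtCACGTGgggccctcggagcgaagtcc
Gpnmb (chr6:49036268-49036517): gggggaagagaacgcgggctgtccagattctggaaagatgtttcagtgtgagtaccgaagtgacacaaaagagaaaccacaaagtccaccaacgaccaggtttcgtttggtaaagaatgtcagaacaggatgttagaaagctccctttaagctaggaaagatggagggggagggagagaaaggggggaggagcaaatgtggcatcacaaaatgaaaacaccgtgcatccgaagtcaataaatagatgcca

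The 2 copies of Ctsd stood 245 and 98 bases before its RefSeq start, and they are shown as 30-base stretches because GENCODE places exons of Ctsd over most of this window. Both are written 5′ to 3′ on the minus strand, the strand of the gene.
Ctsd, distal copy (chr7:142388048-142388077): tccccCACGTGacctgtatccagtcattct
Ctsd, proximal copy (chr7:142387908-142387937): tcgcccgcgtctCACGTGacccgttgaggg

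Windows with 4 or more copies numbered 7 of 32851 (0.0213%), and those with 2 or more 141 (0.429%). The single copy of Ctsl began 236 bases before a RefSeq start that lies inside the GENCODE gene, so this window is not upstream of the gene's outermost start. In a longer list of other lysosomal proteins 10 of 44 windows held the core (22.7%), and in a list of endocytic machinery 2 of 22 (9.09%). A match describes letters in the window and not a bound site.

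**Figure D1:**
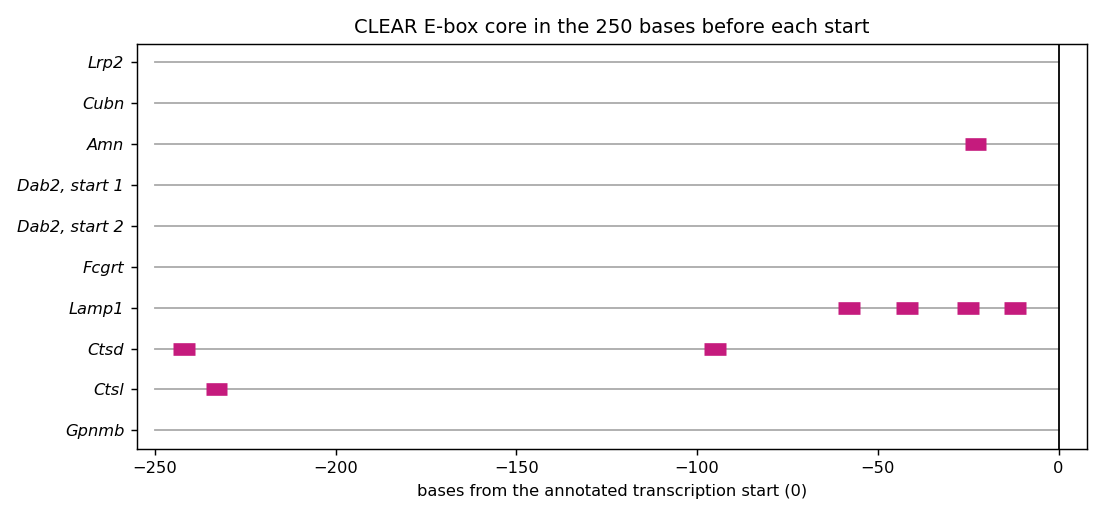
Position of the CLEAR E-box core (bars) in the 250 bases before each RefSeq start of the members, with distance from the start in bases on the x axis and 1 line per window. Lamp1 has 4 copies, Ctsd 2, Ctsl and Amn 1 each, and the other windows none.

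Total counts ranged from 19643033 to 48833447 in kidney and from 17520161 to 36452741 in aorta. One library pair in each tissue was near-identical, a1 (KO HFD) with a12 (WT HFD) in kidney and R-1 (WT SFD) with R-12 (KO SFD) in aorta: the median chi-square over genes was 0.0269 and 0.0277, where sampling noise alone gives 0.455 and the next closest pairs gave 1.62 and 1.6. As each pair joins a WT and a KO group, results are given with all libraries and, for some members, also without both. Libraries that differ by less than sampling noise cannot be counted as separate mice. The sample sizes, SE and p-values with all libraries nevertheless count them so. Immediate-early genes, which respond fast to handling, were far higher in a8, a9 and a17 than in the other kidneys (summed levels of 2556, 2518 and 2380 FPM against 114 to 222 FPM). FPM is the count of a gene per 1000000 counts of the normalised library size. Egfr itself, of which the cross removes exon 1 in Tie2-Cre cells, averaged 56.3 and 53.1 FPM in kidneys of WT and KO mice under SFD, with a log2 difference of -0.09 ± 0.17 (SE, adjusted p = 1), so no loss of Egfr was detected in whole-organ RNA. With HFD Egfr fell by 0.40 averaged over genotypes (adjusted p = 0.0292). All 13 markers fixed for the proximal tubule were detected in kidney, and they summed to 31090 to 70420 FPM per library, with Kap the largest part. This shows tubule RNA in the whole organ and does not place the members in the tubule.

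Kidney expressed 9 of the 10 members strongly and aorta expressed the lysosomal ones. Between tissues this is a description without a test, since tissue and table are the same split. Lrp2 averaged 1602 FPM over the 20 kidneys (range 1240 to 2026), a level above that of 99.7% of genes tested, and had 3 counts in all 20 aortas together. Amn averaged 208 FPM in kidney and had 17 counts in the aortas. Cubn averaged 297 FPM in kidney and 1.04 FPM in aorta, a ratio of 285. In aorta the 3 brush-border genes were thus at most at 1.04 FPM on average.

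Dab2, which also serves other cells that take up lipoproteins, was 6.42 times higher in kidney (482 against 75.2 FPM). Lamp1, Ctsl and Fcgrt were less than 2 times higher in kidney, with Lamp1 at 1259 and 642 FPM, Ctsl at 695 and 414 FPM, and Fcgrt at 332 and 222 FPM in kidney and aorta. Ctsb and Ctsd were higher in aorta, by 1.58 and 1.64 times. Gpnmb stood apart with 0.907 FPM in kidney and 32.2 FPM in aorta, 35.5 times higher in aorta. For Fcgrt and Ctsd the ranges of kidney and aorta overlapped, for the other members they did not.

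Levels per kb of exon put Lamp1 first in kidney at 471 FPM per kb (range 416 to 515), clear of every other member on this scale. The length used was that of the merged exons of all GENCODE transcripts of a gene, 2675 bases for Lamp1 and 6489 for Ctsl. It can exceed the length of the RNA made in the kidney, so the order of the genes depends on this choice. Fcgrt (158), Ctsd (134), Amn (113), Ctsl (107), Ctsb (106) and Lrp2 (95.9 FPM per kb) followed with overlapping ranges between neighbours. Dab2 lay at 65.7 FPM per kb, with a range that overlapped that of Lrp2, and Cubn at 19.9 FPM per kb below both. Gpnmb came last at 0.139 FPM per kb. The levels of some members are uncertain where exons overlap, since the strand setting is not given: 34.4% of the exon bases of Ctsd lie in exons of Gm49369 on the same strand, 12.8% of those of Ctsb in Fdft1 and 26.8% of those of Ctsl in Gm47123, both on the other strand.

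**Figure D2:**
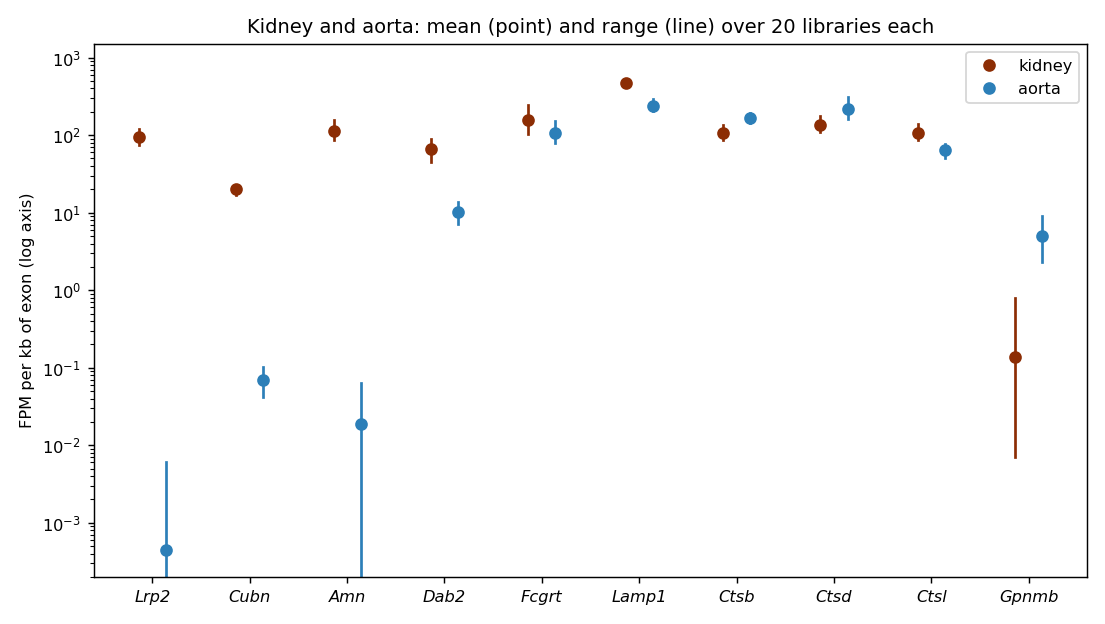
Level per kb of exon on a log axis for each member, with the mean (point) and the range (line) over 20 kidney and 20 aorta libraries. Cubn lies 285 times lower in aorta than in kidney, Lrp2 and Amn lie lower still, Gpnmb lies 35.5 times higher in aorta, and lines that reach the bottom edge include libraries with 0 counts.

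The diet comparison asked how 18 weeks of HFD changed these genes in kidney. Averaged over genotypes, Gpnmb, Ctsl, Dab2 and Ctsb rose and no member fell (edgeR quasi-likelihood test, adjusted p under 0.05 over all genes tested). These 4 of 10 members stand against 16.4% of all genes called in this comparison, and 7.7% called as higher. The members were chosen with earlier results of these data known, so the shares here and below are a description and no independent test of an excess. In WT mice alone 1 of 10 members rose, Gpnmb, against 6.71% of genes called and 3.03% called higher. In KO mice alone 4 of 10 rose, Dab2, Ctsb, Ctsl and Gpnmb, against 6.34% called and 3.16% called higher. Gpnmb passed the filter on low counts only through its HFD libraries and had to differ to be tested. Of the other 9 members 3 rose averaged over genotypes, 0 in WT and 3 in KO mice (edgeR). In WT mice 4 of these 9 had an unadjusted p under 0.05 (Lrp2, Dab2, Ctsb and Ctsl), and DESeq2 called 1, Dab2. The median log2 change of the 10 members was 0.05 in WT, 0.32 in KO and 0.18 averaged, beside medians near 0 over all genes. Under the study's stricter rule, a fold change over 1.5 and over 5 FPM, no member was called, because Gpnmb stayed under 5 FPM on average and the others changed by less than 1.5-fold.

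Among the receptors, Lrp2 tended down. Under SFD it was at 1705, 1733, 1662, 1905 and 2026 FPM in WT kidneys a16 to a20 and at 1521, 1772, 1617, 1563 and 1628 FPM in KO kidneys a6 to a10. Under HFD it was at 1532, 1332, 1563, 1688 and 1641 FPM in WT kidneys a11 to a15 and at 1333, 1240, 1831, 1310 and 1437 FPM in KO kidneys a1 to a5. The WT groups overlapped only between a14 under HFD and a18 under SFD, while in KO mice a3 stood above every KO kidney under SFD. The log2 change with HFD was -0.22 ± 0.10 in WT (SE, adjusted p = 0.211), -0.18 ± 0.10 in KO (adjusted p = 0.318) and -0.20 ± 0.07 averaged (adjusted p = 0.0504), just outside the threshold. Without a3 the averaged change was -0.25 (adjusted p = 0.00437), without a18 it was -0.20 (adjusted p = 0.0447), and without both near-identical kidneys it was -0.16 (adjusted p = 0.127).

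Cubn did not pass the test, with means of 310 ± 30.0 FPM under SFD and 304 ± 26.0 FPM under HFD in WT kidneys, and of 304 ± 30.0 and 272 ± 19.3 FPM in KO kidneys (SD, n = 5 each). Its averaged log2 change was -0.10, with a 95% confidence interval of -0.22 to 0.03. Amn ranged from 160 to 289 FPM over all kidneys, with an averaged log2 change of 0.15 (interval -0.09 to 0.39, adjusted p = 0.411). The highest values of Amn were those of a1 and a12 at 289 FPM each and of a18 at 281 FPM, each far above the median of its group.

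Dab2, the adaptor that couples the receptors to clathrin, rose with HFD. It was at 442, 420, 441, 469 and 479 FPM in WT SFD and at 561, 511, 543, 579 and 559 FPM in WT HFD kidneys, in the order above. In KO kidneys it was at 420, 393, 462, 327 and 414 FPM under SFD and at 512, 487, 650, 475 and 502 FPM under HFD. The diets did not overlap in either genotype. Dab2 was the single member without overlap in WT mice, where 6.64% of all genes had groups that did not overlap, and 1 of 5 such members in KO mice, beside Lamp1, Ctsb, Ctsl and Gpnmb, where the share over all genes was 7.81%. Of these, Gpnmb was tested only through its HFD libraries, so its lack of overlap adds no support.

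The averaged log2 change of Dab2 was 0.34 ± 0.06 (1.26-fold, adjusted p = 0.000854). Within genotypes it was 0.38 ± 0.09 in KO (adjusted p = 0.0117) and 0.29 ± 0.09 in WT (adjusted p = 0.0579), the latter passing the threshold without a3 (adjusted p = 0.0193), without a9 (0.0318) or without a12 (0.0491). So Lrp2 and its adaptor had estimates of opposite sign under HFD.

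Fcgrt, the receptor that spares IgG and albumin from breakdown, was not called. Its WT SFD values of 339, 276, 515, 236 and 220 FPM spread widely through a18, and the WT HFD values were 285, 456, 336, 267 and 304 FPM. In KO mice it was at 281, 303, 308, 295 and 297 FPM under SFD and at 457, 414, 291, 395 and 368 FPM under HFD, where only a3 fell among the SFD kidneys. The averaged log2 change was 0.22 ± 0.13 (adjusted p = 0.295). Without a18 it was 0.35 (adjusted p = 0.0303), and without a1 and a12 it was 0.11 (adjusted p = 0.629), so single libraries decided it. In a18 the proximal tubule markers summed to 70419 FPM, the highest of all kidneys, and the podocyte markers to 91.2 FPM, the lowest, where the other kidneys had at least 180 FPM. Kap alone averaged 27450 FPM in WT SFD kidneys, so the tubule sum depends heavily on this gene. The part of tissue composition in these values was not tested. In whole-organ RNA more cells of a type and more RNA per cell cannot be told apart.

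Among the lysosomal members, Lamp1, a main protein of the lysosome membrane, was steady in WT mice and higher under HFD in KO mice without passing the test. Its WT values were 1263, 1181, 1356, 1259 and 1203 FPM under SFD and 1181, 1361, 1267, 1175 and 1337 FPM under HFD. The KO values were 1113, 1148, 1192, 1221 and 1205 FPM under SFD and 1363, 1341, 1325, 1322 and 1376 FPM under HFD, so the KO groups did not overlap. The log2 change was 0.01 ± 0.06 in WT and 0.19 ± 0.06 in KO (adjusted p = 0.931 and 0.0584). In KO it passed the threshold in 5 alternatives, without a12 (adjusted p = 0.0476), without a18 (0.046), by DESeq2's Wald test (0.0124) and with the macrophage or the proximal tubule score as covariate (0.0308 and 0.0358). The difference between the 2 changes was 0.18 (95% confidence interval 0.00 to 0.36, unadjusted p = 0.0455, adjusted p = 1).

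The cysteine proteases Ctsb and Ctsl rose together with HFD. Ctsb was at 599, 570, 666, 542 and 527 FPM in WT SFD and at 629, 828, 676, 603 and 688 FPM in WT HFD kidneys. In KO mice it was at 549, 560, 603, 539 and 551 FPM under SFD and at 826, 768, 679, 700 and 717 FPM under HFD. WT groups overlapped through a18, and KO groups did not overlap. Its log2 change was 0.24 ± 0.09 in WT (adjusted p = 0.11), 0.40 ± 0.09 in KO (adjusted p = 0.00583) and 0.32 ± 0.06 averaged (1.25-fold, adjusted p = 0.000859).

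Ctsl, which changed most of the 3 cathepsins followed here, was at 655, 568, 691, 580 and 589 FPM in WT SFD and at 665, 894, 693, 657 and 720 FPM in WT HFD kidneys. In KO kidneys it was at 584, 579, 669, 580 and 622 FPM under SFD and at 893, 882, 792, 770 and 823 FPM under HFD. Every KO HFD kidney thus exceeded every SFD kidney of either genotype, whereas 2 WT HFD kidneys (a11 and a14) lay below the a18 value under SFD. The log2 change was 0.23 ± 0.09 in WT (adjusted p = 0.116), 0.46 ± 0.09 in KO (adjusted p = 0.00185) and 0.35 ± 0.06 averaged (1.27-fold, adjusted p = 0.000382). Both calls held without a1 and a12, with averaged changes of 0.26 for Ctsb (adjusted p = 0.0021) and 0.29 for Ctsl (adjusted p = 0.000753). In WT mice the changes without these kidneys were 0.16 and 0.15 (adjusted p = 0.215 and 0.254).

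Ctsd, the aspartic protease of the lysosome, did not pass the test, with means of 307 ± 60.7 FPM under SFD and 303 ± 38.2 FPM under HFD in WT kidneys, and of 297 ± 11.6 and 350 ± 49.8 FPM in KO kidneys (SD, n = 5 each). The averaged log2 change was 0.11, with a 95% confidence interval of -0.07 to 0.28 (adjusted p = 0.419).

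**Figure D3:**
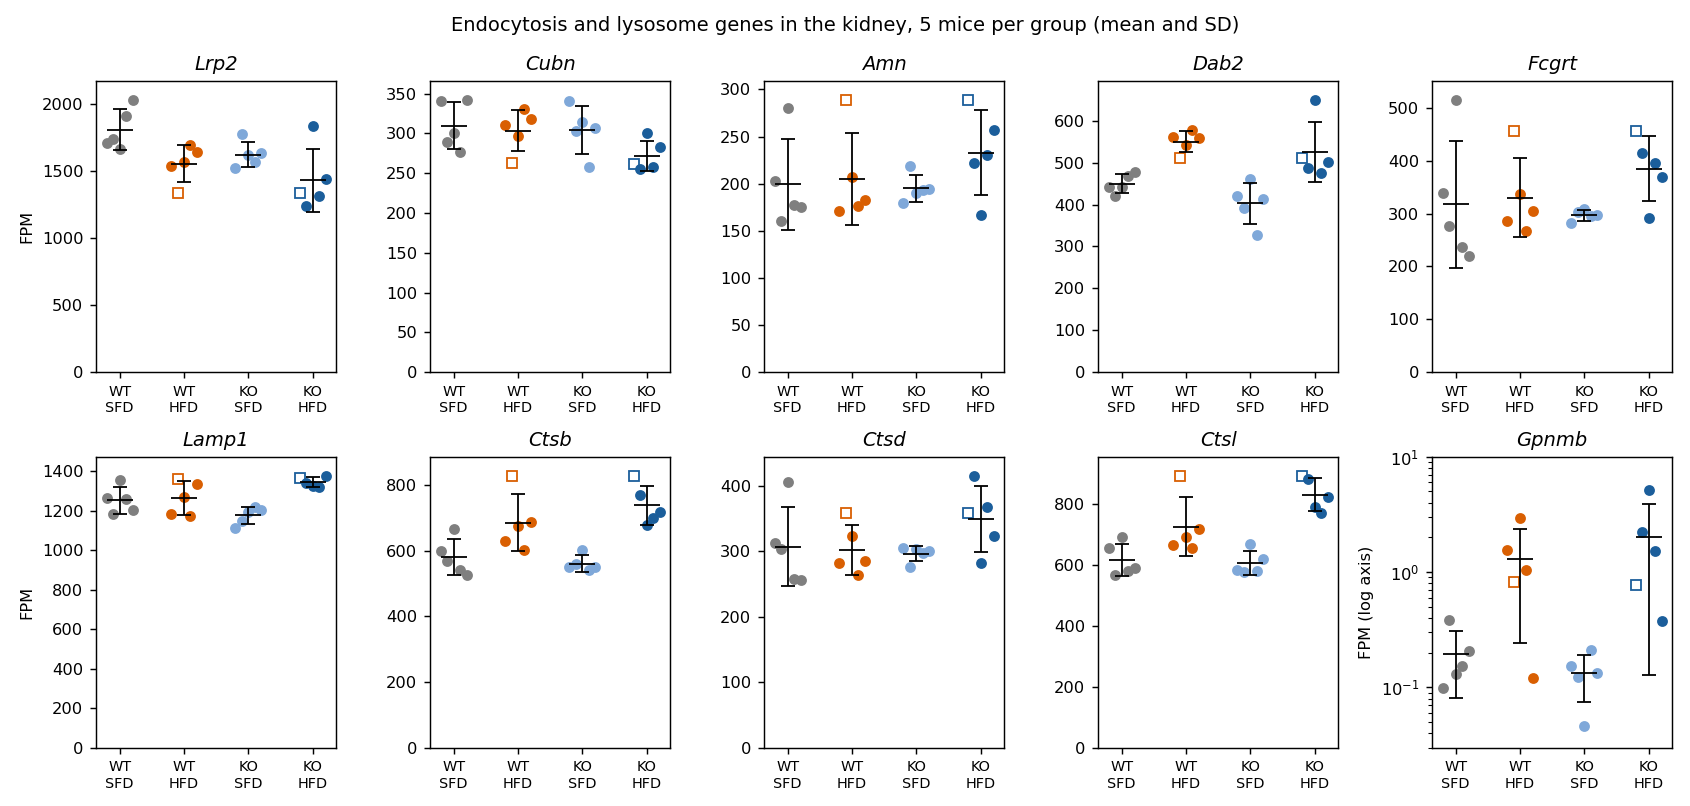
Level of each member in FPM by genotype and diet in kidney, with 1 point per library (open squares are the near-identical a1 and a12) and the mean and SD over 5 mice. The axis starts at 0 except for Gpnmb, which has a log axis. Dab2 does not overlap between diets in either genotype, and Ctsb, Ctsl, Lamp1 and Gpnmb do not overlap between diets in KO mice.

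Gpnmb had the largest change and the lowest counts. The SFD kidneys held 3, 9, 3, 4 and 5 counts in WT and 3, 3, 1, 5 and 3 counts in KO mice. The HFD kidneys held 37, 39, 76, 28 and 3 counts in WT and 37, 43, 117, 35 and 8 counts in KO mice. These are the counts behind the filter noted above.

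In FPM the medians of Gpnmb were 0.152 under SFD and 1.04 under HFD in WT mice, and 0.135 and 1.53 in KO mice. In WT mice a15 under HFD (0.120 FPM) lay within the SFD range of 0.0998 to 0.387 FPM. In KO mice the groups did not overlap (highest SFD value 0.210, lowest HFD value 0.380 FPM). The log2 change was 2.71 ± 0.71 in WT (6.55-fold, adjusted p = 0.024) and 3.85 ± 0.76 in KO (14.4-fold, adjusted p = 0.00303), with confidence intervals of 1.22 to 4.20 and 2.26 to 5.43. The averaged change was 3.28 ± 0.52 (9.70-fold, adjusted p = 0.00015). The WT call was lost without a13 (2.17, adjusted p = 0.088), a16 (0.0704), a18 (0.0604) or a19 (0.0532), whereas the KO and averaged calls held in all 20 fits that left out 1 kidney. As Gpnmb was tested only because its HFD libraries were high, these calls and intervals are a description and no independent support for a change.

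Macrophage markers also changed with HFD. Of 13 fixed markers, all of them detected, 9 rose and 1 fell with HFD averaged over genotypes, where 16.4% of all genes were called. Their median log2 change was 0.67. Whether Gpnmb followed the summed markers from kidney to kidney was not tested, and only its relation to Cd68 is given below. Cd68, a lysosomal protein of macrophages, rose from 2.21 to 4.17 FPM in WT and from 3.21 to 4.38 FPM in KO mice (averaged log2 change 0.68 ± 0.14, adjusted p = 0.0017). C1qc, a complement subunit, and Lyz2, lysozyme, rose by 0.67 each (adjusted p = 0.00214 and 0.00351), while Csf1r, the receptor for the macrophage growth factor, fell by 0.26 (adjusted p = 0.0168).

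The summed marker level ranged from 118 to 212 FPM under SFD and from 174 to 251 FPM under HFD in WT kidneys, and from 145 to 195 and 175 to 246 FPM in KO kidneys. With a macrophage score as a covariate the Gpnmb change was 1.22 in WT (adjusted p = 0.554), 3.05 in KO (adjusted p = 0.0162) and 2.14 averaged (adjusted p = 0.0397). Under the same covariate the averaged changes of Dab2, Ctsb and Ctsl were 0.35, 0.38 and 0.42 (adjusted p = 0.0136, 0.00494 and 0.00228). As most markers in this score changed with HFD themselves, these fits cannot separate macrophage content from diet. Of the 5 melanocyte markers, all with counts in kidney, only Pmel passed the filter on low counts. The 5 together summed to at most 1.21 FPM in any kidney. The medians of this sum under HFD were 0.758 in WT and 0.657 in KO against 0.832 and 0.861 FPM under SFD.

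**Figure D4:**
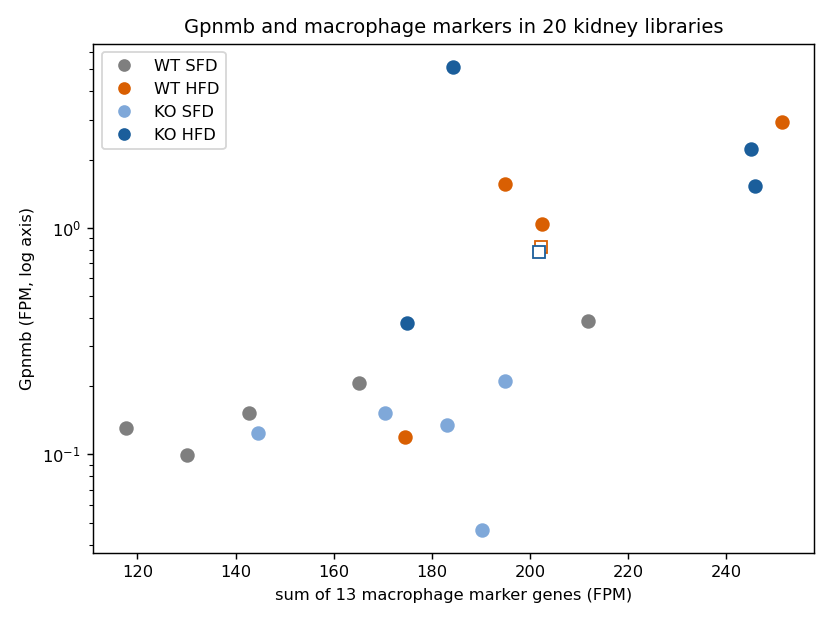
Gpnmb in FPM (log axis) against the summed FPM of 13 macrophage marker genes in 20 kidney libraries, coloured by group, with the near-identical a1 and a12 as open squares. The HFD kidneys lie above the SFD kidneys except a5 (0.380 FPM) and a15 (0.120 FPM), which lie within the SFD range, and a3 (KO HFD) has the highest Gpnmb (5.12 FPM) at a marker sum of 184 FPM.

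Proximal tubule markers moved as well. With HFD 7 of 13 fell and 2 rose averaged over genotypes, where 16.4% of all genes were called. Acsm2 fell from 6630 to 3808 FPM in WT and from 6080 to 3886 FPM in KO mice (averaged log2 change -0.72 ± 0.07, adjusted p = 3.36e-07). The transporter Slc7a13 and the water channel Aqp1 fell by 0.69 and 0.39 (adjusted p = 3.37e-05 and 5.98e-05). The glucose transporter Slc5a2 and the anion transporter Slc22a8 rose by 0.83 and 0.59 (adjusted p = 0.000353 and 0.000314). With a proximal tubule score as covariate Dab2, Ctsb, Ctsl and Gpnmb were called on average, and Lrp2 (-0.28, adjusted p = 0.0166) and Fcgrt (0.47, adjusted p = 0.0166) were called too. As the markers in this score changed with HFD in both directions, this fit cannot separate tubule content from diet. Without the kidneys with high immediate-early genes (a8, a9 and a17) the same 4 members were called on average as with all kidneys.

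The wider lysosome and endocytosis lists were read in the same fit, beside the 16.4% of all genes called. These lists too were chosen with earlier results of these data known, so their counts are a description. Of 38 other lysosomal proteins tested 13 rose and 4 fell, with a median log2 change of 0.11. Arsa, the sulfatase that degrades sulfatide, rose from 10.2 to 17.5 FPM in WT and from 11.8 to 17.4 FPM in KO mice (0.67 ± 0.09, adjusted p = 1.51e-05). Lgmn, legumain, the asparaginyl protease that also processes cathepsins, rose from 656 to 863 FPM in WT and from 626 to 924 FPM in KO mice (0.48 ± 0.07, adjusted p = 5.79e-05). Ctsc, the dipeptidyl peptidase cathepsin C, rose by 0.74 (adjusted p = 9.86e-05).

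Among the lysosomal genes that fell were Gusb, β-glucuronidase (-0.56 ± 0.11, adjusted p = 0.00106), Psap, the precursor of the saposins (-0.34 ± 0.08, adjusted p = 0.00736), and Neu1, a sialidase (-0.23 ± 0.07, adjusted p = 0.0217). The list thus changed in both directions. Within genotypes 5 of 38 rose and 2 fell in WT, and 8 rose and 0 fell in KO, a difference in counts that was not tested. Over all genes 6.71% were called in WT and 6.34% in KO.

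In the endocytic machinery 3 of 19 genes tested rose and none fell, where 16.4% of all genes were called. They were B2m, the light chain that pairs with the Fc receptor (0.40 ± 0.08, adjusted p = 0.00125), Cltc, the clathrin heavy chain (0.26 ± 0.07, adjusted p = 0.0126), and Rab7, the GTPase of late endosomes (0.14 ± 0.04, adjusted p = 0.0157). Of 13 tested subunits of the proton pump that acidifies lysosomes 1 rose, Atp6v1g1 (0.28 ± 0.07, adjusted p = 0.00985). The proton pump and endocytic lists, with medians of 0.04 and 0.01, lay close to the median of all genes.

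Among 14 tested genes that control lysosomes 1 rose and 1 fell, beside the same 16.4% of all genes. Mtor, the kinase that restrains TFEB, fell from 292 to 200 FPM in WT and from 260 to 172 FPM in KO mice (-0.57 ± 0.06, adjusted p = 1.79e-06). Tfec, a relative of TFEB, rose by 0.28 (adjusted p = 0.028). Of 12 autophagy genes 4 fell and none rose, led by Wipi1 (-0.33 ± 0.07, adjusted p = 0.00241), Wipi2 (-0.19 ± 0.04, adjusted p = 0.00462) and Map1lc3a (-0.39 ± 0.11, adjusted p = 0.0232). Wipi1 and Wipi2 bind the forming autophagosome membrane, and Map1lc3a is one of its LC3 proteins.

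The genotype comparison asked what loss of endothelial EGFR changed. No member was called in kidney under SFD, under HFD or averaged over diets, and none for the interaction of KO and HFD. Over all genes 0% were called in each of these 4 comparisons by edgeR, with 426, 546, 768 and 285 of 15943 genes at an unadjusted p under 0.05, and DESeq2 called 0, 0, 1 and 0 genes. Among the members 0, 1, 0 and 1 had an unadjusted p under 0.05. These were Ctsl under HFD (log2 difference 0.20 ± 0.09, adjusted p = 0.814) and the interaction of Lamp1 given above.

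Under SFD the 95% confidence intervals of KO against WT lay within -0.36 to 0.15 on the log2 scale for Lrp2, Cubn and Dab2. Under HFD the interval was -0.07 to 0.29 for Ctsb and 0.02 to 0.38 for Ctsl. Gpnmb had wide intervals, -2.37 to 1.37 under SFD and -0.60 to 1.86 under HFD. The interaction estimate was positive for 9 of 10 members, from 0.04 for Lrp2 to 1.13 ± 1.08 for Gpnmb, and that of Cubn was -0.14. Over all genes the median interaction estimate was 0.00195. The member estimates share the same libraries, and 0 of 10 were positive for KO against WT under SFD, which enters each interaction. The count of signs is therefore a description and no result about the members. As a1 and a12 are near-identical but sit in KO and WT, each estimate under HFD includes a pair of nearly equal libraries. In the wider lists no lysosomal, endocytic, proton pump, control or autophagy gene was called for genotype or interaction. The smallest p in these lists under HFD was that of Lamtor1, a scaffold for mTOR on lysosomes (0.25 ± 0.09, adjusted p = 0.814).

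**Figure D5:**
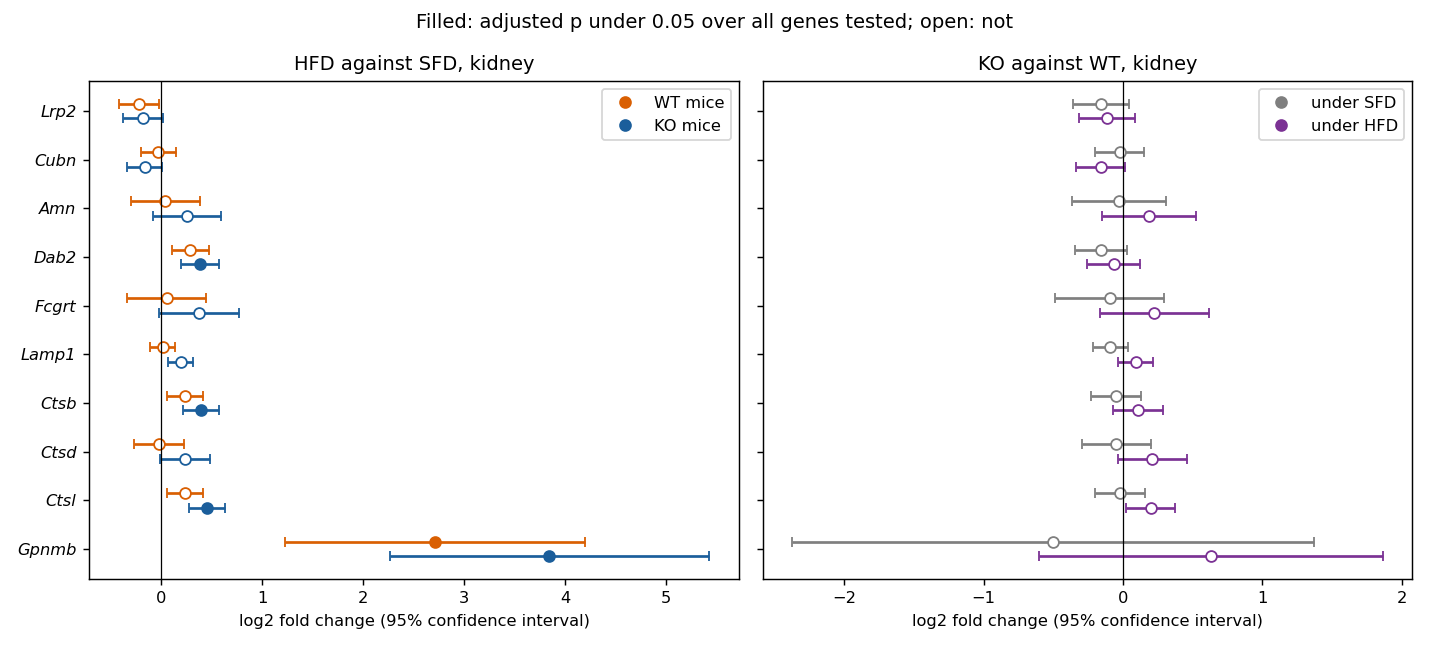
Log2 fold change of each member in kidney with its 95% confidence interval, for HFD against SFD in WT and KO mice (left) and for KO against WT under SFD and HFD (right). Filled points have an adjusted p under 0.05 and are Gpnmb in WT mice and Dab2, Ctsb, Ctsl and Gpnmb in KO mice on the left, and none on the right.

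In aorta no member was called in any of the 7 comparisons, and few genes were. HFD called 0.0132% of 15122 genes in WT, 0% in KO and 0.0529% averaged, and KO called 0% under SFD, 0% under HFD and 0.0198% averaged, with 0% for the interaction. At an unadjusted p under 0.05 stood 394, 690, 1013, 345, 884, 1328 and 127 genes in the same order, and DESeq2 called 10, 5, 51, 0, 27, 45 and 0 genes, no member among them. Dab2 was the single member with an unadjusted p under 0.05 in any comparison (KO against WT averaged over diets, log2 difference 0.23 ± 0.11, unadjusted p = 0.0487, adjusted p = 0.566).

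The members that rose with HFD in kidney had small aortic estimates. Averaged over genotypes the log2 change in aorta was -0.01 for Ctsb (95% confidence interval -0.16 to 0.14), -0.08 for Ctsl (-0.27 to 0.10), -0.16 for Dab2 (-0.39 to 0.07) and -0.11 for Gpnmb (-0.53 to 0.31). Gpnmb lay between 14.9 and 59.8 FPM over all aortas, with means of 31.8 ± 12.5 FPM under SFD and 29.2 ± 3.33 FPM under HFD in WT mice, and of 34.9 ± 7.03 and 32.8 ± 16.2 FPM in KO mice (SD, n = 5 each). The difference in response between tissues was not tested, as the tissues were counted in separate tables. The macrophage marker sum in aorta had medians of 674 and 736 FPM under SFD and 409 and 535 FPM under HFD in WT and KO mice.

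Members that act together were compared across 19 kidneys (a1 and a12 averaged), as log2 FPM centred on the group means, in 6 pairs with a two-sided permutation test. Ctsb and Ctsd varied together (Pearson r = 0.79, permutation p = 0.00012, adjusted 0.00072; Spearman rho = 0.74, permutation p = 0.00049, adjusted 0.00294), also without the 2 kidneys farthest from the median of Ctsb (r = 0.70, permutation p = 0.00179). Lrp2 and Dab2 had r = 0.67 (permutation p = 0.00261, adjusted 0.00522) and rho = 0.60 (permutation p = 0.00785, adjusted 0.0157), but without a2 and a3 r was 0.42 (permutation p = 0.0875), so the relation rested on those kidneys. Gpnmb and Cd68 had r = 0.66 (permutation p = 0.00165, adjusted 0.00495) and rho = 0.65 (permutation p = 0.00306, adjusted 0.00918), and without a5 and a15 r was 0.55 (permutation p = 0.0236, adjusted 0.0709).

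The 2 parts of the cubilin complex did not vary together in a detectable way, with r = -0.33 for Cubn and Amn (permutation p = 0.177, rho = -0.30, permutation p = 0.22, r = -0.47 without a9 and a19). Lrp2 and Cubn had r = 0.46 (permutation p = 0.0461, adjusted 0.0691; rho = 0.45, permutation p = 0.0568), and r = 0.33 without a2 and a3. Fcgrt and its light chain B2m had r = -0.16 (permutation p = 0.536, rho = -0.15, permutation p = 0.545), and r = 0.06 without a18 and a20. Library composition and depth are shared by both genes of each pair.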

How the data were processed

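Oligo(dT)-enriched RNA of kidneys and aortas was sequenced by the authors as paired-end reads of 150 bases and mapped to mm10 (HISAT2 2.1.0 in the submitters' processing notes, TopHat2 in the methods). The deposited tables hold raw counts per gene from featureCounts. The strand setting is not given in the sources used here. Genes at 0 counts in every library, among them those of chromosomes 9, X and Y, were not used here. In kidney this left out 9 of 47 other lysosomal proteins and 4 of 23 genes of the endocytic machinery. It also left out 3 of 16 proton pump and 2 of 14 autophagy genes. The wider lists are therefore incomplete, and a gene left out is not thereby shown to be unexpressed.

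Groups came from the labels. Each tissue was fitted in edgeR 4.0.16 (R 4.3.3; TMM, filterByExpr, robust quasi-likelihood test, Benjamini-Hochberg over all genes tested). Each fit had 7 comparisons, and a gene was called at an adjusted p under 0.05. The procedure was tested on simulated data with 200 changed genes. Alternatives used DESeq2 1.42.0, other filters, covariates and left-out libraries. For correlations 0.05 was added to FPM and 100000 permutations were drawn. Exon lengths came from GENCODE (GRCm38), with the exons of all transcripts of a gene merged. Intervals cover the spread between libraries. The text names the members, Egfr and, per fixed list, the called genes with the smallest p, at most 3 per direction. Neu1 was named after its values were seen. One gene that this rule names is not reported here. The members and lists were chosen with earlier results of these data known.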

Additional observations from a re-analysis of the deposited data

Results flagged for a closer look

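Within groups of 5, 80 sets of values (members tested and total counts) were searched for 1 library that stood far from the others, of which chance marks about 1 in 20. Among members these were Dab2 in a3 (KO HFD kidney, 649.6 FPM), Ctsd in a7 (KO SFD kidney, 276.5 FPM, low), Ctsl in a12 (WT HFD kidney, 893.7 FPM) and Ctsb in R-1 (WT SFD aorta, 1145 FPM). In total counts they were a1 (48788716), a12 (48833447) and a16 (31369285) in kidney, and R-1 (36419598) and R-12 (36452741) in aorta. The 4 deepest of these libraries are the near-identical pairs.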

How the results depend on the processing

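No paired analysis was possible because the replicate labels are unique to each library. For single members, 2027 of 2067 kidney values and all 1600 aorta values under the alternatives kept their side of the threshold and, where called, their direction; 16 called values lost and 24 uncalled values gained the call, and none reversed. In aorta the count of called members stayed at 0 under every alternative run, as did the kidney counts for genotype and interaction. Without the near-identical a1 and a12 the KO and averaged diet calls of Dab2, Ctsb, Ctsl and Gpnmb held. For HFD in WT kidneys (1 member) the count was 0 without the low-count filter, 2 by DESeq2's Wald test, 0 under the stricter rule on fold and level, 0 with the macrophage score and 2 with the proximal tubule score, and 0 to 2 when 1 kidney was left out. For HFD in KO kidneys (4) it was 0 under the stricter rule, 6 with the proximal tubule score (Fcgrt and Lamp1 added) and 4 to 5 with 1 kidney left out. Averaged (4) it was 0 under the stricter rule, 6 with the proximal tubule score (Lrp2 and Fcgrt added) and 4 to 7 with 1 kidney left out, with 7 without a18. Fitted on only the 2 groups compared, Gpnmb gave no value for diet, Dab2 was called in WT (adjusted p = 0.0428) and Fcgrt was added in KO (0.0427). The stricter rule asks for larger changes by construction; for the others the cause was not tested. Averaged Lrp2 was called with DESeq2 size factors (adjusted p = 0.0448), DESeq2's Wald test (0.0239) and the clock score (0.0324). Values not centred on group means gave r = -0.0106 for Lrp2 and Dab2, a sign opposite to r = 0.67, and r = 0.59 (adjusted p = 0.0153) for Lrp2 and Cubn. Without the 2 farthest kidneys r was 0.423 for Lrp2 and Dab2 and 0.547 for Gpnmb and Cd68. Over all aortic genes DESeq2 called 10, 51 and 45 where edgeR called 2, 8 and 3 (HFD in WT, HFD averaged, KO averaged), and 5 and 27 where edgeR called 0 (HFD in KO, KO under HFD). Depth limits Gpnmb in kidney, with 1 to 9 counts per SFD library.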
